A study of Mus musculus with 12 samples.

Results

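The glucocorticoid receptor *Nr3c1*, the hormone-activating enzyme *Hsd11b1* and 5 target genes of the receptor (*Fkbp5*, *Tsc22d3*, *Sgk1*, *Dusp1* and *Zbtb16*) were followed over the day in the mouse liver. The members were chosen by gene symbol, and they are 7 of the 20069 genes in the expression table. The row of *Sgk1* carries its older symbol Sgk, and the other 6 were found under the symbols used here. All 7 had at least 1 value above the expression minimum of 8 reads per base pair (rpbp, the mean coverage of the exons of a gene). The livers came from C57BL/6 male mice of wild-type genotype, 3 to 6 months old, kept under 12 hr of light and 12 hr of darkness, with no other treatment. Poly(A) RNA was sequenced every 4 hr from ZT2 to ZT22 (Zeitgeber time, hr after lights on) in 2 independent series, so that each of the 6 times had 2 samples, 12 in all. The liver was taken at death, so that no animal was followed over time, but the labels do not say whether a sample is 1 animal or a pool.

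Glucocorticoids are steroid hormones of the adrenal gland, and corticosterone, the main one of mice, rises toward the active phase, near lights off. In the liver cell, the hormone binds the glucocorticoid receptor, which is held by chaperones in the cytoplasm and then moves to the nucleus and binds DNA as a pair at inverted repeats of a short motif. HSD11B1 makes the active hormone from its inert keto form inside the cell, and the products of several target genes feed back on the receptor or on inflammatory and growth signals. Corticosterone and the receptor protein were not measured here, so that the values below are mRNA levels.

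The DNA around the members was searched first for the receptor's full palindromic motif, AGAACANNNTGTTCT (N is any base; both strands, which read the same), within 10 kb on each side of the annotated transcript starts in mm9. In *Fkbp5*, 2 matches were found over 5 starts, and in *Sgk1*, 1 match over 11 starts. The 3 sites are shown because they are the only exact matches found near the members that were searched. Each is printed on the strand of its gene with 10 bases on each side, and the capitals mark the motif.

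Fkbp5, chr17:28557266-28557280 (minus strand, intron): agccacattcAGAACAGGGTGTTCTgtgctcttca
Fkbp5, chr17:28579364-28579378 (minus strand, intron): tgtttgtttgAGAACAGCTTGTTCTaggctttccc
Sgk1, chr10:21713507-21713521 (plus strand, intron): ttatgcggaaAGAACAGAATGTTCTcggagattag

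The first *Fkbp5* site lies 8301 bases inside the nearest start, and the second lies 704 bases before a start of a shorter transcript. The *Sgk1* site is centred 182 bases before a start and within an intron of longer transcripts. Of the 21723 protein-coding genes searched, 134 (0.617%) had such a match in at least 1 of these windows. No exact match was found around *Tsc22d3*, *Zbtb16*, *Dusp1* or *Hsd11b1*, and a relaxed motif, AGNACANNNTGTNCT, which 7.55% of the genes had, found the same 3 sites and no other. *Nr3c1* was not searched. A match of letters is a description of the sequence, since binding was not measured here.

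The E-box CACGTG (a palindrome, so that both strands read the same), the motif to which the clock proteins CLOCK and BMAL1 bind, was searched in the 250 bases before the start in the promoter table of RefSeq (GRCm38.p6, another build than the one above). The table held promoters of *Fkbp5*, *Dusp1*, *Hsd11b1*, *Tsc22d3* and *Sgk1*. The promoters of *Fkbp5* (1 of 1), *Dusp1* (1 of 1) and *Sgk1* (1 of 6) had an E-box, and those of *Hsd11b1* and *Tsc22d3* had none, against 6.02% of the 32851 promoters in the table. The 3 promoters with an E-box are shown, since their genes have different daily profiles below. Capitals mark the E-box and, in *Sgk1*, also the receptor site printed above, which 0.00913% of the promoters in the table hold.

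Fkbp5, chr17:28486150-28486399 (minus strand): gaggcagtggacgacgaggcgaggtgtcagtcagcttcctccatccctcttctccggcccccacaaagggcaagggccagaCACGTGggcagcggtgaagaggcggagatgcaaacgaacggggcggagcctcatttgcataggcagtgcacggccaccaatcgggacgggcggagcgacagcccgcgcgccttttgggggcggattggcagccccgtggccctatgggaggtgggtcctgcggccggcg
Dusp1, chr17:26508473-26508722 (minus strand): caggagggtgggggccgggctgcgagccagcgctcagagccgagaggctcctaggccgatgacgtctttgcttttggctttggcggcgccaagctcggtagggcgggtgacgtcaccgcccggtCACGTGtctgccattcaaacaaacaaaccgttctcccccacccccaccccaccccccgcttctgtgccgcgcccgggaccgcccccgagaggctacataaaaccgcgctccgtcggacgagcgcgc
Sgk1, chr10:21993640-21993889 (plus strand): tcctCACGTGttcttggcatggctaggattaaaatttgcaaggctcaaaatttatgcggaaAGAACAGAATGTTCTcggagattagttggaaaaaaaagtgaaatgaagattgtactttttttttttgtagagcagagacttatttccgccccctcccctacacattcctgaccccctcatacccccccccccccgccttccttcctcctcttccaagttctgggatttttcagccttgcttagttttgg

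In the expression data, hepatocyte mRNAs dominated, and the sample labels name the tissue as liver. The summed level of 6 hepatocyte markers (such as albumin) was between 90523 and 171683 rpbp, against 203 to 364 rpbp for 6 Kupffer cell markers, 166 to 200 rpbp for 5 endothelial markers and 7.32 to 27.8 rpbp for 6 leukocyte markers, and none of these genes was at 0 in any sample. The ZT2 samples stood apart. Their hepatocyte marker sums were 90523 and 93377 rpbp, below all 10 other samples (133728 rpbp or more), and their Kupffer marker sums of 362 and 364 rpbp were above all others (289 rpbp or less). The hepatocyte sum is mostly albumin (*Alb*), at 50445 and 53126 rpbp at ZT2 and 93174 rpbp or more elsewhere, and its genes did not move together. *Ttr* was also lowest at ZT2 (9533 and 9369 rpbp), whereas *Apoa1* (17423 and 17762 rpbp) and *Serpina1a* (3877 and 3883 rpbp) were highest there. *Cyp2e1* (8075 and 8042 rpbp) and *Cps1* (1169 and 1195 rpbp) had their lowest means at ZT2, but each had a lower sample at another time. The sum of 4 bile duct markers was low, and lower in the evening (5.16 to 9.6 rpbp) than in the morning (10.92 to 15.96 rpbp) with no overlap. Its 1 expressed gene, *Sox9*, was called lower in the evening (log2 difference −1.37, limma adjusted p = 0.00284), but was above the minimum in 3 morning samples only. Its part in the evening contrasts of the 7 genes was not tested. Between 8762 and 9108 genes per sample were above the minimum, and the 2 samples of a time differed with a median SD of 8.95% of the mean.

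*Nr3c1* (chr18:39570199-39650955, minus strand, mm9), the glucocorticoid receptor, had the smallest ratio of highest to lowest value of the 7 genes (1.26). In series 1, its signal was 66.0 rpbp at ZT2, 63.2 at ZT6, 78.1 at ZT10, 61.9 at ZT14, 67.2 at ZT18 and 64.0 at ZT22. In series 2, it was 64.5, 64.1, 65.5, 65.3, 68.7 and 64.0 rpbp at the same times. Only the ZT10 sample of series 1 was above 70 rpbp, and the other 11 samples lay between 61.9 and 68.7 rpbp. The share of the variance carried by a 24 hr cosine (F24) was 0.0966 (permutation p = 0.79). The evening samples (ZT10 and ZT14, around lights off) averaged 67.7 ± 7.14 rpbp (SD, n = 4) and the morning samples (ZT22 and ZT2, around lights on) 64.6 ± 0.966 rpbp. The difference was 0.06 on the scale of log2(rpbp + 1), with a 95% interval from −0.10 to 0.22 (limma, adjusted p = 0.602), and the groups overlapped.

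*Hsd11b1* (chr1:195047824-195090248, minus strand), the reductase that regenerates active glucocorticoid, had the highest mRNA level of the 7 genes per base of exon, with a mean of 1041 rpbp. Its signal in series 1 was 767 rpbp at ZT2, 922 at ZT6, 1266 at ZT10, 1158 at ZT14, 1123 at ZT18 and 1116 at ZT22. Series 2 gave 756, 1039, 1078, 1168, 1036 and 1067 rpbp. Both ZT2 samples were below every other sample, the ZT6 sample of series 1 was the next lowest, and the other 9 lay between 1036 and 1266 rpbp. The 24 hr cosine had an F24 of 0.607 (permutation p = 0.011, adjusted p = 0.0895), a phase of 14.1 hr and a highest value 1.68 times the lowest. The evening mean was 1168 ± 76.9 rpbp and the morning mean 926 ± 192 rpbp (SD, n = 4 each), 1.26-fold apart, and the groups overlapped. The log2 difference of 0.35 ± 0.08 (SE) passed the limma test (adjusted p = 0.0157). With both ZT2 samples left out, a choice made after seeing the data, the difference between evening and ZT22 fell to 0.10 (adjusted p = 0.662), and F24 to 0.350 (permutation p = 0.221). *Alb* and *Ttr* were also lowest at ZT2, *Cyp2e1* and *Cps1* had their lowest means there, and *Apoa1* and *Serpina1a* were highest there. Of the 6 hepatocyte markers 3 were higher in the evening and 0 were lower, where 8.51% and 9.0% of all expressed genes were. Their part in the *Hsd11b1* result was not tested. In bulk samples, fewer cells of a type and less RNA per cell cannot be told apart.

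**Figure D1:**
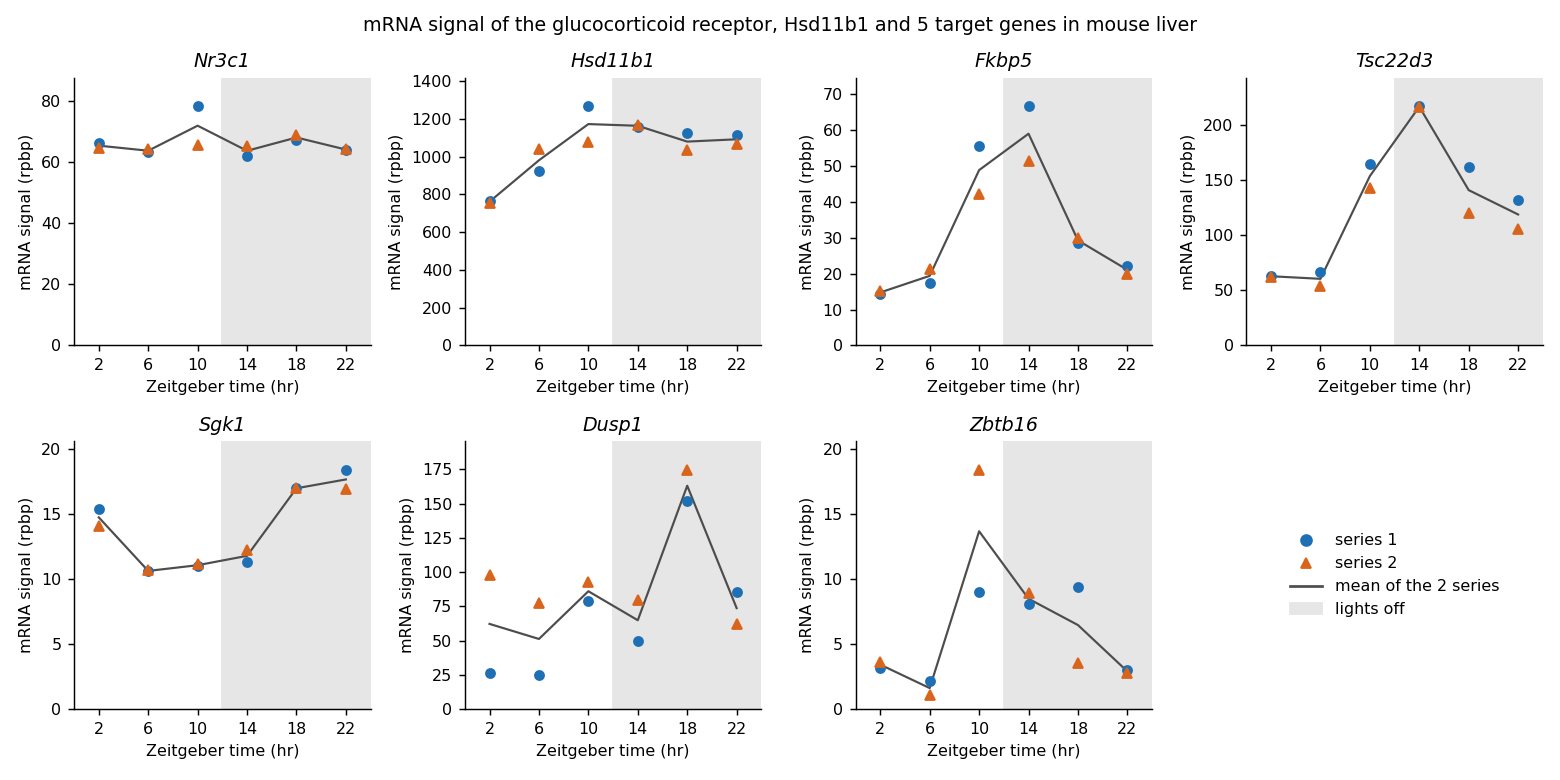
mRNA signal (rpbp, linear axes from 0) against Zeitgeber time (hr) for the 7 genes, with each sample of series 1 (circles) and series 2 (triangles), the mean of the 2 series (line) and the dark phase (grey). *Fkbp5* and *Tsc22d3* reach their highest means at ZT14 (59.0 and 217 rpbp), *Sgk1* is highest at ZT22 (17.7 rpbp), *Dusp1* at ZT18 (163 rpbp), and *Nr3c1* stays between 61.9 and 78.1 rpbp.

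The target genes did not share 1 profile. *Fkbp5*, *Tsc22d3* and *Zbtb16* were higher in the evening than in the morning, *Sgk1* was lower, and *Dusp1* did not pass the test.

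*Fkbp5* (chr17:28536040-28654469, minus strand) encodes a co-chaperone that binds the receptor complex and lowers its affinity for hormone. Series 1 had a signal of 14.3 rpbp at ZT2, 17.5 at ZT6, 55.5 at ZT10, 66.6 at ZT14, 28.6 at ZT18 and 22.1 at ZT22. The values of series 2 were 15.2, 21.3, 42.2, 51.4, 29.9 and 20.0 rpbp. The 4 samples at ZT10 and ZT14 were above all 8 others in both series. The highest time mean, at ZT14, was 59.0 ± 10.8 rpbp (SD, n = 2), 4.00 times the lowest, at ZT2 (14.8 ± 0.679 rpbp). *Fkbp5* mRNA rose 3.01-fold from the morning mean (17.9 ± 3.76 rpbp) to the evening mean (53.9 ± 10.1 rpbp; n = 4 each), a log2 difference of 1.54 ± 0.12 (SE; limma, adjusted p = 0.00022). F24 was 0.825 with a permutation p of 0.0001, the smallest that 10000 orders can give (adjusted p = 0.00836). The phase was 13.0 hr in series 1 and 13.1 hr in series 2, shortly after lights off.

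*Tsc22d3* (chrX:137074067-137135198, minus strand) encodes GILZ, a leucine zipper protein that mediates anti-inflammatory effects of glucocorticoids. Its signal in series 1 was 63.4 rpbp at ZT2, 66.8 at ZT6, 164 at ZT10, 217 at ZT14, 162 at ZT18 and 132 at ZT22. Series 2 gave 62.1, 54.0, 143, 216, 120 and 105 rpbp. The ZT14 samples were the highest of each series, with an SD of 0.424 rpbp between them, and the 4 samples at ZT2 and ZT6 were the lowest. The mRNA rose 2.04-fold from morning (90.8 ± 34.2 rpbp) to evening (185 ± 37.4 rpbp; SD, n = 4 each), without overlap. The log2 difference was 1.07 ± 0.12 (SE; limma, adjusted p = 0.000999). At ZT22 both samples were still above those of ZT2, and with the ZT2 samples left out the difference was 0.62 (limma, adjusted p = 0.0792). F24 was 0.842 (permutation p = 0.0005, adjusted p = 0.0208), with a phase of 14.9 hr in series 1 and 14.4 hr in series 2.

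*Zbtb16* (chr9:48462416-48644050, minus strand), which encodes the zinc finger repressor PLZF, was the lowest of the 7 genes, and only 5 of its 12 samples were above the minimum, the 4 evening samples and the ZT18 sample of series 1. It thus entered the tests mainly through the group where it is high. Series 1 had a signal of 3.20 rpbp at ZT2, 2.16 at ZT6, 8.96 at ZT10, 8.04 at ZT14, 9.40 at ZT18 and 3.04 at ZT22. The values of series 2 were 3.64, 1.08, 18.4, 8.92, 3.52 and 2.76 rpbp. The evening samples were all above the morning samples, whereas the ZT18 samples of the 2 series differed 9.40 to 3.52 rpbp. The evening mean was 11.1 ± 4.88 rpbp and the morning mean 3.16 ± 0.368 rpbp (SD, n = 4 each), a 3.50-fold rise. On the log2 scale, which understates changes of low genes, it was 1.47 ± 0.29 (SE; limma, adjusted p = 0.0101), and 1.23 (adjusted p = 0.0284) without the ZT10 sample of series 2, the highest. F24 was 0.485 (permutation p = 0.0269, adjusted p = 0.139), close to the limit of 0.45. The rhythm call was lost without the ZT2 sample of series 1 (p = 0.0524), the ZT22 sample of series 1 (p = 0.0572) or that of series 2 (permutation p = 0.0629).

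*Sgk1* (chr10:21601990-21719709, plus strand) encodes a kinase that acts on ion transport and is a well-known target of both corticosteroid receptors. In series 1, its signal was 15.4 rpbp at ZT2, 10.6 at ZT6, 11.0 at ZT10, 11.4 at ZT14, 17.0 at ZT18 and 18.4 at ZT22. In series 2, it was 14.1, 10.7, 11.2, 12.2, 17.0 and 17.0 rpbp. The 6 samples from ZT6 to ZT14 lay between 10.6 and 12.2 rpbp, and the 6 from ZT18 to ZT2 between 14.1 and 18.4 rpbp. *Sgk1* therefore had the opposite sign to *Fkbp5* in the same contrast: 11.4 ± 0.553 rpbp in the evening and 16.2 ± 1.87 rpbp in the morning (SD, n = 4 each), without overlap. The log2 difference was −0.46 ± 0.06 (SE; limma, adjusted p = 0.00231), or 1.42-fold higher in the morning. It had the highest F24 of the 7 genes, 0.926 (permutation p = 0.0001, adjusted p = 0.00836), but a modest amplitude, with a highest value 1.74 times the lowest. The phase was 21.4 hr in series 1 and 20.6 hr in series 2, late in the night.

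*Dusp1* (chr17:26642535-26645464, minus strand) encodes a phosphatase of MAP kinases and is induced by glucocorticoids and, as an immediate early gene, by many other stimuli. In series 1, its signal was 26.4 rpbp at ZT2, 25.2 at ZT6, 78.9 at ZT10, 49.8 at ZT14, 152 at ZT18 and 85.2 at ZT22. In series 2, it was 98.0, 77.3, 93.1, 80.0, 174 and 62.3 rpbp. The ZT18 samples were the highest of both series, and the series differed most at ZT2 and ZT6. The mean at ZT18 was 163 ± 16.2 rpbp (SD, n = 2), with the 2 samples above all 10 others. F24 was 0.360 (permutation p = 0.136), although the highest value was 6.93 times the lowest. The evening mean was 75.5 ± 18.3 rpbp and the morning mean 68.0 ± 31.4 rpbp (n = 4 each). The log2 difference of 0.27 had a 95% interval from −0.73 to 1.26 (limma, adjusted p = 0.717), which spans falls and rises, and the groups overlapped. Without the ZT14 sample of series 1, F24 was 0.521 (permutation p = 0.0455) and *Dusp1* passed the rhythm criteria.

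Beside *Dusp1*, 11 immediate early genes (such as *Fos*, *Jun* and *Egr1*) had a summed level between 126 and 279 rpbp. The largest part was *Zfp36*, whose mean was highest at ZT6 (165 and 161 rpbp) and not at ZT18 (85.1 and 150.0 rpbp), where *Dusp1* was highest. *Nr4a1* was highest at ZT18 in both series (2.72 and 9.28 rpbp), but only the second of these samples passed the minimum. *Jun* was highest at ZT22 in series 1 (16.4 rpbp) and at ZT18 in series 2 (27.4 rpbp), and *Egr1* at ZT2 (42.4 rpbp) and ZT18 (24.1 rpbp). In both series *Junb* was highest at ZT6 (40.5 and 49.8 rpbp), *Ier2* at ZT2 (26.2 and 20.3 rpbp) and *Btg2* at ZT14 (11.8 and 15.3 rpbp). *Fos*, under the minimum in all samples, was highest at ZT2 in series 1 (3.64 rpbp) and at ZT14 in series 2 (5.76 rpbp). Of the 7 that were above the minimum, 1 (*Btg2*) rose in the evening (background 8.51%) and none fell (background 9.0%). Their part in the *Dusp1* values was not tested.

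By the rhythm criteria (permutation p below 0.05, F24 above 0.45 and a highest value over 1.5 times the lowest), 5 of the 7 genes were rhythmic, where 19.1% of the 10198 expressed genes were. With the p-value adjusted over all expressed genes, 3 of 7 (*Fkbp5*, *Tsc22d3* and *Sgk1*) passed, against 5.82%, and the cosine fit in limma called the same 3, against 8.61%. In the evening against the morning, 4 genes were higher (background 8.51%), 1 was lower (background 9.0%) and 2 were not called. In 3 genes all 4 evening samples were above all 4 morning samples (background 7.32%), and in 1 they were all below (background 7.79%). *Zbtb16* is among the 5 rhythmic genes, the 4 higher ones and the 3 with all evening samples above. Its only samples above the minimum were the 4 evening ones and the ZT18 sample of series 1. *Zbtb16* thus entered the tests mainly through the group where it is high. The median difference of the 7 genes was 0.35 on the log2 scale, and that of all expressed genes −0.03. A difference of this contrast between the series did not pass for any of the 7 genes (interaction in limma, adjusted p = 0.999). Over all genes, the interaction called 0 at an adjusted p below 0.05 and 459 at an unadjusted one. Without the ZT2 samples, the same 3 genes were rhythmic and *Hsd11b1* and *Zbtb16* were not, while 1528 genes of all were rhythmic against 1948. *Fkbp5* was then the only one called higher in the evening (log2 difference 1.30, limma adjusted p = 0.00875), and *Sgk1* was still lower (−0.59, adjusted p = 0.0123). *Zbtb16* lost its call with a difference of 1.56 (adjusted p = 0.0656), no smaller than with all samples. In that setting 181 genes of all those tested were higher and 208 lower, against 868 and 918 with all samples.

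**Figure D2:**
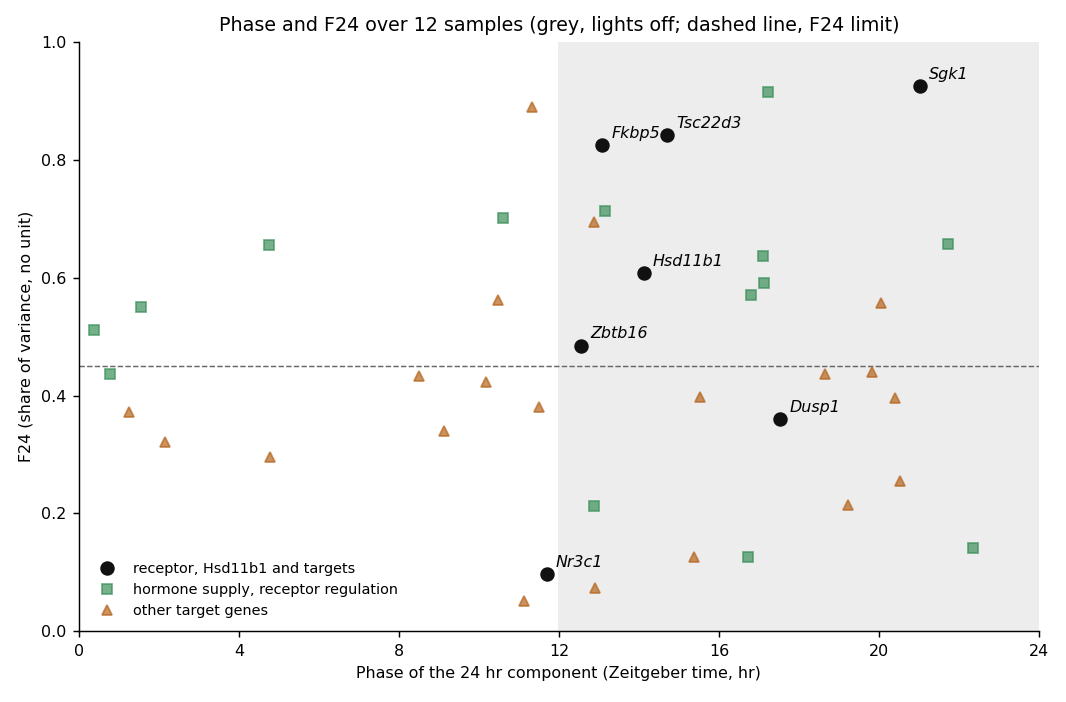
F24 (share of variance in a 24 hr cosine, no unit) against the phase of that cosine (Zeitgeber time, hr) over 12 samples, for the 7 genes (black, named), 14 genes of hormone supply and receptor regulation (green squares) and 20 other target genes (orange triangles). *Fkbp5*, *Tsc22d3* and *Hsd11b1* lie between 13.1 and 14.7 hr and *Sgk1* at 21.0 hr; *Nr3c1* and *Dusp1* are under the dashed limit of 0.45.

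Across the 12 samples, the levels of *Fkbp5* and *Tsc22d3* went together (Pearson r = 0.87 of log2 values), and *Zbtb16* followed them less closely (r = 0.73 with *Fkbp5* and 0.77 with *Tsc22d3*). *Sgk1* had r = −0.40 with *Fkbp5* and 0.02 with *Tsc22d3*, and *Nr3c1* had r between −0.05 and 0.33 with the other 6 genes. These values are descriptions, since samples of 1 time share the time. Searched against 8952 other genes (8953 for *Zbtb16*), the profile most like that of *Fkbp5* was *Itpr1*, an inositol trisphosphate receptor (r = 0.975), followed by *Homer2* (r = 0.965) and by a row named vesl-2, which is another name of *Homer2*. For *Tsc22d3*, the most alike were a row named Tilz3b (r = 0.9995), *Fgf1* (r = 0.967) and *Cask* (r = 0.950). Tilz3 is another name of *Tsc22d3*, so that these 2 rows may hold reads of 1 locus and were not taken as separate genes. For *Sgk1*, *Clpx* (r = 0.946) and *Ppard* (r = 0.943) were among the most alike, with phases of 21.2 and 21.1 hr. For *Hsd11b1* they were *Ugt2a3* (r = 0.933), *Adh5* (r = 0.927) and *Dhrs7* (r = 0.919). The closest genes of *Zbtb16* (*5730403B10Rik*, r = 0.858; *Dcun1d3*, r = 0.854; *Nucks1*, r = 0.853), *Dusp1* (*Brd1*, *Amotl2* and *AK002723*, each r = 0.83) and *Nr3c1* (*Pex26*, r = 0.752; *Grwd1*, r = 0.741; *AK079188*, r = 0.734) were less alike.

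Of 15 genes that supply the hormone or regulate the receptor, 14 were expressed, and *Hsd11b2*, the enzyme that inactivates glucocorticoid in kidney, was under the minimum. In the evening 2 of the 14 were higher (background 8.51%), 2 were lower (background 9.0%) and 10 were not called, with a median log2 difference of 0.07. *Serpina6*, which encodes the corticosteroid-binding globulin of plasma, rose from 256 ± 94.2 rpbp in the morning to 942 ± 119 rpbp in the evening (SD, n = 4 each; log2 difference 1.94 ± 0.19 SE; limma, adjusted p = 0.000521). Its mean was highest outside both groups, at ZT6 (738 and 1342 rpbp). *Akr1d1*, a steroid reductase that clears glucocorticoids, rose from 186 ± 99.7 to 373 ± 11.2 rpbp (log2 difference 1.16, adjusted p = 0.000434 in limma), and like *Hsd11b1* it was lowest in the ZT2 samples (111 and 97.6 rpbp). Without those samples its difference was 0.49 (adjusted p = 0.0957). *H6pd*, which makes the NADPH that HSD11B1 uses, had the reverse profile of *Hsd11b1* at ZT2. Its signal was 473 and 454 rpbp there and between 231 and 363 rpbp in the other samples, with a fall of 0.51 from morning to evening (limma, adjusted p = 0.0115) that was −0.16 (adjusted p = 0.569) without ZT2. *Nr3c2*, the mineralocorticoid receptor, was lower in the evening (log2 difference −0.26, limma adjusted p = 0.0245), a call lost when any of 7 of the 8 samples in the contrast was left out. It was highest at ZT6 (14.7 and 15.0 rpbp) and had a phase of 4.74 hr.

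The same list holds 5 chaperones and co-chaperones of the receptor. *Fkbp4*, *Hsp90aa1*, *Hsp90ab1* and *Stip1* passed the rhythm criteria with phases between 16.8 and 17.2 hr, whereas that of *Fkbp5* was 13.1 hr. *Ptges3*, the co-chaperone p23, did not (F24 of 0.213, permutation p = 0.342), and with the adjusted p *Fkbp4* alone of the 5 passed (0.0129, against 0.0878 to 0.117 for the other 3). The rhythm call was lost in 1 of 12 omissions of a single sample for *Fkbp4* and in 2 of 12 for each of the other 3, and that of *Hsp90ab1*, with an amplitude of 1.52 close to the limit of 1.5, also without both ZT2 samples. *Fkbp4*, the co-chaperone that competes with FKBP5 on the receptor, was between 167 and 258 rpbp with an F24 of 0.916, and none of the 5 passed the contrast of evening and morning. In all, 7 of the 14 genes were rhythmic (background 19.1%), and 3 passed the adjusted p (background 5.82%).

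Of 20 other known target genes of the receptor, all were expressed and 4 were rhythmic (20.0%, with a background of 19.1%). In the evening 4 were higher (background 8.51%), none was lower (background 9.0%) and 16 were not called, with a median log2 difference of 0.20. *Per1*, a clock gene that glucocorticoids induce, rose from 1.17 ± 0.567 to 11.2 ± 2.19 rpbp (log2 difference 2.51 ± 0.18 SE; limma, adjusted p = 0.000164). It was above the minimum in the 4 evening samples only, and so entered the test through the group where it is high. *Lpin1*, a phosphatidate phosphatase, rose from 12.1 ± 3.95 to 84.8 ± 57.0 rpbp (log2 difference 2.52; adjusted p = 0.000607 in limma), with 161 rpbp in the ZT10 sample of series 2. *Angptl4*, an inhibitor of lipoprotein lipase, rose from 44.6 ± 12.4 to 99.95 ± 22.8 rpbp (log2 difference 1.16; limma, adjusted p = 0.000691). *Cebpd*, a transcription factor, rose from 3.52 ± 0.890 to 6.78 ± 2.30 rpbp (log2 difference 0.76; limma, adjusted p = 0.0268), a call lost without any of 5 single samples. Only 1 of its samples, the ZT10 sample of series 2, was above the minimum, so that it too entered through the evening group, and without a minimum its adjusted p was 0.0561. *Pdk4* was rhythmic with a phase of 20.1 hr, but the rhythm call (permutation p = 0.0388) was lost in 7 of 12 omissions of a single sample, and its log2 difference was −0.74 (limma, adjusted p = 0.0897). The classic liver targets *Tat* (log2 difference 0.31), *Tdo2* (0.19), *Pck1* (0.21) and *G6pc* (−0.26) were not called. Wide intervals were those of *Bcl6* and of the metallothioneins *Mt1* and *Mt2*. *Mt2* was at 142 and 37.9 rpbp at ZT2 and between 3.44 and 60.5 rpbp elsewhere, and its log2 difference of −2.27 did not pass (limma, adjusted p = 0.0951).

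**Figure D3:**
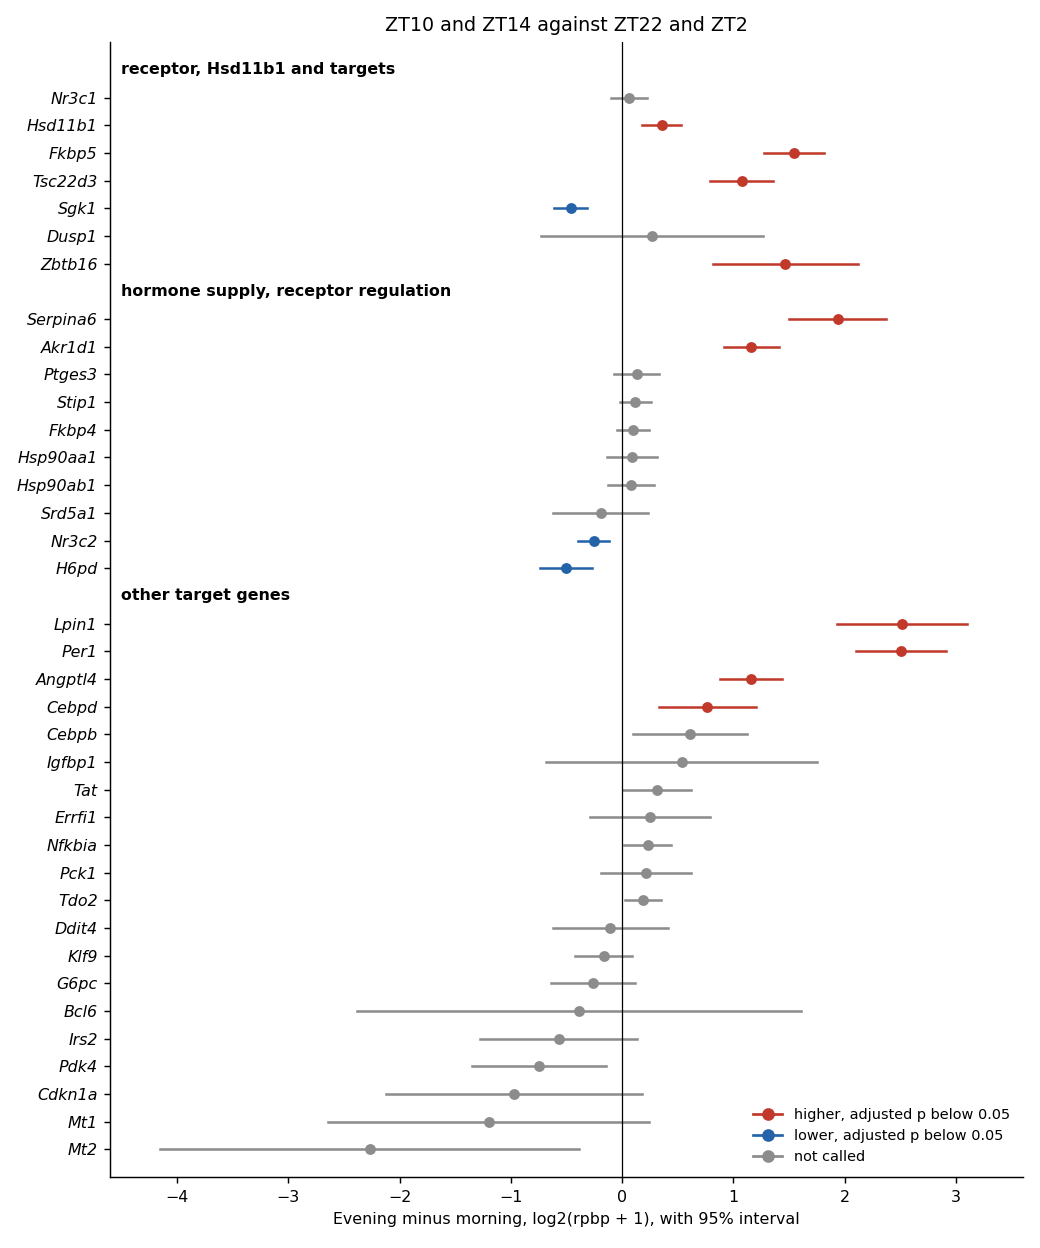
Difference between evening (ZT10 and ZT14, n = 4) and morning (ZT22 and ZT2, n = 4) on the scale of log2(rpbp + 1), with its 95% interval from limma, for the 7 genes and the 2 lists, without the coregulators of the receptor (37 genes). Red is higher and blue lower at an adjusted p below 0.05 over 10198 genes, and grey is not called; *Fkbp5* (1.54), *Zbtb16* (1.47) and *Tsc22d3* (1.07) lie to the right and *Sgk1* (−0.46) to the left.

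**Figure D4:**
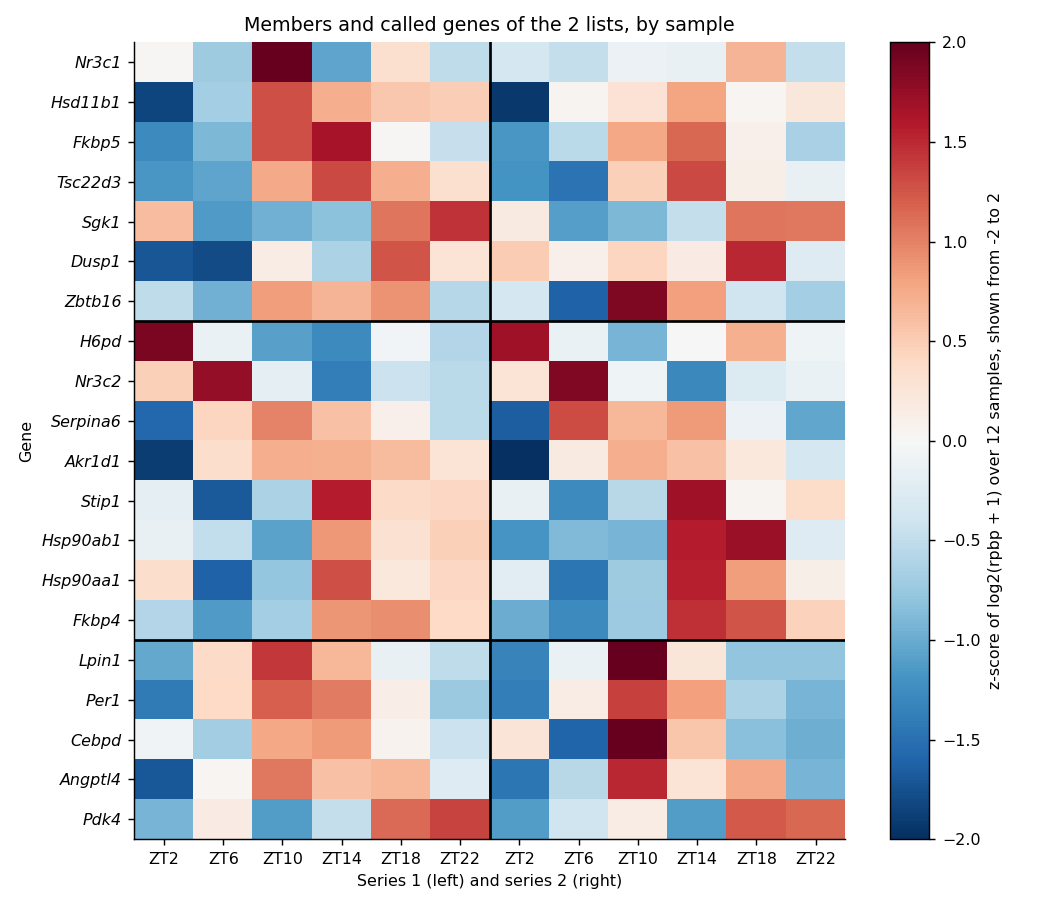
Map of z-scores of log2(rpbp + 1) over the 12 samples (columns, series 1 left and series 2 right) for the 7 genes (top) and the 13 called or rhythmic genes of the 2 lists (hormone supply and receptor regulation in the middle, other targets at the bottom), red high and blue low. *Hsd11b1* and *Akr1d1* are lowest, and *H6pd* highest, in the ZT2 columns of both series, and *Sgk1* and *Pdk4* are high at ZT18 and ZT22.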

How the data were processed

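Liver poly(A) RNA of 12 samples had been sequenced from TruSeq libraries. Per the submitters' processing notes and the study's methods, CASAVA 1.8 and TopHat were used, and the authors aligned the reads to mm9 and used only uniquely mapped ones. The deposited signal is the authors' coverage of the flattened exons of a gene per base pair, made without strand and scaled to 10000000 uniquely mapped sequences. It was multiplied by 4, the scale of the study's criteria. The deposited table also holds the authors' own F24 fraction, their phase (a score in hr) and their permutation p-value, and these columns were not used. The last time is named ZT20 in the column names and ZT22 in the labels, and was taken as ZT22. The deposited signal gives no counts, so that no interval for counting error is given. No exon of the 7 genes overlaps an exon of another gene in the mm9 annotation (GENCODE vM1).

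Of 20069 genes, the 10198 that passed 8 rpbp in any sample were tested. F24, phase and amplitude (highest over lowest value) were computed from the 12 values, with p from 10000 random orders (seed 1). In limma, a 24 hr cosine and sine, and the contrast of ZT10 and ZT14 minus ZT22 and ZT2 from the 6 time means, were fitted to log2(rpbp + 1), with Benjamini-Hochberg adjustment over all genes tested. P-values measure the spread between these samples. The scripts were tested on simulated data. Named genes are the 7 members, the called or rhythmic genes of the 2 lists (at most 12 each) and the 3 genes most alike each member, among genes with a mean of at least 8 rpbp. *Tat*, *Tdo2*, *Pck1*, *G6pc*, *Bcl6*, *Mt1*, *Mt2*, *Ptges3*, *Alb*, *Ttr*, *Apoa1*, *Serpina1a*, *Cyp2e1*, *Cps1*, *Sox9*, *Btg2*, *Zfp36*, *Nr4a1*, *Jun*, *Junb*, *Egr1*, *Ier2* and *Fos* were named after their values were seen. Some results that the rule would name are not reported here. The members and lists were chosen with earlier results of these data known. Stellate cell and erythroid markers were also summed. Their ranges were 197 to 245 and 295 to 857 rpbp. Alternatives were other minimums (16 or none), pseudocounts (0.1 or 4), size factors, F24 on log values, the adjusted p, amplitudes from time means, a series term, and each sample or series left out. Versions were limma 3.58.1 in R 4.3.3, and scipy 1.17.1, numpy 2.4.6, matplotlib 3.10.9 and pandas 2.3.3 in Python 3.11.15.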

Additional observations from a re-analysis of the deposited data

Results flagged for a closer look

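Among 20 genes (the 7 members and the 13 genes of the lists that were rhythmic or called in the evening contrast), the 4 evening and the 4 morning samples were checked for a sample far from its group, with the 95% limit of Dixon's test for a gap. Of 40 groups, 3 were past it, and chance gives about 1 in 20. *Zbtb16* was 18.36 rpbp in the ZT10 sample of series 2, and the next evening sample was 8.96 rpbp. *Cebpd* was 10.2 rpbp in the same sample, and the next was 5.96 rpbp. *Akr1d1* was 355.92 rpbp in the ZT14 sample of series 2, under the other 3 evening samples (376 rpbp or more), which is a small gap in size.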

How the results depend on the processing

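Left out in turn, single samples or a whole series gave between 0 and 6 rhythmic genes of the 7 (5 with all samples) and 0 to 3 by the cosine fit in limma. Single samples left out gave 3 to 4 higher in the evening and 1 lower; 1 series alone leaves that contrast without a test. The call lost in the evening was *Hsd11b1* without the ZT22 sample of series 2 (adjusted p = 0.052). With series 2 alone 1 of the 7 was rhythmic and with series 1 alone 0, and the cosine fit in limma called 0 genes in each, with 1348 and 812 genes of all at an unadjusted p below 0.05. With samples or series left out, hormone supply and receptor regulation had 0 to 8 rhythmic genes and the other targets 1 to 5. With single samples left out, the former had 1 to 2 lower genes, and the latter 3 to 4 higher and 0 to 2 lower ones. With the adjusted p in place of the unadjusted one and the limits of F24 and amplitude kept, 3 members, 3 genes of hormone supply and 2 other targets were rhythmic, and 508 of all genes against 1948 (594 by the adjusted p without those limits). With a minimum of 16 rpbp, 1 gene of hormone supply was lower and 2 other targets were higher. Without both ZT2 samples, 3 members (and 1528 of all genes) were rhythmic, 1 was higher and 1 lower; in hormone supply 1 was higher and 0 lower, and of the other targets 1 was lower (limma). These settings use fewer samples, fewer genes or a stricter limit. The other planned settings changed no count of calls among the members, and no called value changed sign. Over all genes, leaving out single samples gave 1592 to 2000 rhythmic genes, 541 to 874 in the cosine fit (878 with all samples), 574 to 852 higher (868) and 447 to 856 lower (918), and leaving out a series gave 284 to 360 rhythmic ones.

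The series number is shared in the labels but did not pair the samples, since deviations from the time means correlated over 0.1 in 2 of 15 pairs of times (−0.15 to 0.21). With series as a replicate block, 5 members were rhythmic, 3 passed the cosine fit, 4 were higher and 1 lower, as without it, and over all genes 1779 were rhythmic against 1948.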
